A study of Homo sapiens with 4 samples.

Results

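The S phase genes are 40 genes of DNA replication and of the cell functions that accompany it, chosen by symbol from a fixed cell-cycle list, and all 40 were found among the 36601 features of the count tables. They were read in cells with at least 4000 unique molecular identifiers (UMIs, each counting a captured RNA molecule once), at least 1000 genes and at most 20% of UMIs from mitochondrially encoded genes. This left 5533 wild-type and 7275 SIRT1 knockout cells at day 0, and 5372 wild-type and 4419 knockout cells at day 6. The cells are H9, a human embryonic stem cell line, kept on Geltrex in mTeSR1 medium, either unedited or with SIRT1, the gene of an NAD-dependent protein deacetylase, knocked out. Day 0 and day 6 are times in a protocol towards dopaminergic neurons, and RNA was read from transcript 3′ ends in droplets. Each of the 4 groups is 1 library. The sources used here do not say which part of SIRT1 was removed or whether the knockout is 1 clone. Cells are not replicates, so the differences below lack a replicate check and were put to no test. Ranges in parentheses are exact conditional binomial (Clopper-Pearson) 95% intervals of a ratio of counts. They cover counting error only and compare libraries, not conditions.

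Before a cell copies its DNA, the MCM2-7 helicase is loaded on replication origins by the origin recognition complex with CDC6 and CDT1, a step that geminin holds back until the next cycle. Cyclin-dependent and DBF4-dependent kinases then convert the helicase into its active form with CDC45 and the GINS complex, and polymerases start synthesis behind it. Transcription of many of these genes is known to follow E2F factors, which the retinoblastoma protein family restrains until cyclin-dependent kinases phosphorylate it. Pluripotent stem cells are known for a short G1 phase and for spending much of their cycle in S phase.

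Letters of the E2F motif were searched in the RefSeq promoter windows of GRCh38.p14, from 250 bases before to 50 bases after each gene's start. The letters were TTCCCGC or TTGGCGC or TTCGCGC or TTGCCGC on both strands, whose matches can overlap. Of the 40 S phase genes, 31 had an entry, and 27 of these 31 (87.1%) held at least 1 match, against 12 of 45 genes of G2 and M phase (26.7%) and 15.3% of all 27305 genes with an entry. The 4 without a match were CDC45, FEN1, NASP and SLBP. The 31 S phase genes had 42 entries, and matches were counted per entry, so bases shared by entries of the same gene can count more than once. Of the 46 matches in these entries, 36 began before the start site, 23 of them within the 100 bases next to it. The letters CCAAT were found in 74.2% of S phase, 71.1% of G2 and M phase and 39.7% of all genes. The CHR letters TTTGAA or TTCGAA, on both strands, were found in 16.1%, 77.8% and 19.5%. A match is a description of the letters, not a site that was shown to be bound. The entries not found were those of WDR76, MCM4, CCNE2, DSCC1, E2F8, ATAD2, MCM5, POLD3 and RPA2.

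In 7 genes, E2F letters lay in a stretch of at most 120 bases before the start site with no annotated exon in it. The upstream sequences of these genes are printed, since they show where the shared letters sit. They run 5′ to 3′ on the strand of the gene, and capitals mark E2F letters, read on either strand (GCGGGAA is the reverse complement of TTCCCGC, while GCGCCAA is that of TTGGCGC, while GCGCGAA is that of TTCGCGC). HELLS lies at chr10:94545668-94545787 (plus strand), MCM6 at chr2:135876444-135876563 (minus), BLM at chr15:90717226-90717326 (plus) and CASP8AP2 at chr6:89829760-89829879 (plus). GMNN lies at chr6:24775293-24775412 (plus), PCNA at chr20:5126627-5126742 (minus) and POLA1 at chrX:24693798-24693917 (plus). Bases next to the start site that overlapped an annotated exon were cut off. The sequences of BLM (101 bases) and PCNA (116 bases) therefore end short of that site.
HELLS: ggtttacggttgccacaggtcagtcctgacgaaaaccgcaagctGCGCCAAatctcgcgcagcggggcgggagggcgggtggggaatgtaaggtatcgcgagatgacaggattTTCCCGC
MCM6: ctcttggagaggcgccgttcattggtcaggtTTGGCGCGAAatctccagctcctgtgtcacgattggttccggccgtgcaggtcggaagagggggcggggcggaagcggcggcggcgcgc
BLM: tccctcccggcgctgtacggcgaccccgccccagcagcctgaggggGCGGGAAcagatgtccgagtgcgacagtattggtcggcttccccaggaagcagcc
CASP8AP2: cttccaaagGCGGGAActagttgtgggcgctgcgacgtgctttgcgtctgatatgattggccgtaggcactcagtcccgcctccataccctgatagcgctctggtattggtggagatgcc
GMNN: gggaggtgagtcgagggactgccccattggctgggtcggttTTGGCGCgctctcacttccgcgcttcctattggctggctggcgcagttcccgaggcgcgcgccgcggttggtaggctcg
PCNA: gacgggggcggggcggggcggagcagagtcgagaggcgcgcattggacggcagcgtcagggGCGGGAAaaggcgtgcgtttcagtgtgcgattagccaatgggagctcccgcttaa
POLA1: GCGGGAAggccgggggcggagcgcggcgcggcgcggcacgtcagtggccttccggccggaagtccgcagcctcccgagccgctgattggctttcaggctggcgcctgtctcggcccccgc
In MCM6 the marked run holds TTGGCGC and, overlapping it, GCGCGAA.

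The libraries held 51424092 to 73451883 UMIs in cells. Depth per cell ran in opposite directions on the 2 days, with medians of 12645 (wild type) and 8367 (knockout) UMIs at day 0 and 8590 and 13169 at day 6. Between 5 and 18 cell barcodes were shared by any pair of libraries. The SIRT1 level was 32.3 and 30.2 UMIs per 1000000 (CPM) in the wild-type libraries and 7.11 and 9.95 CPM in the knockout libraries. POU5F1, which defines pluripotent cells, stood at 838 and 911 CPM at day 0 and at 185 and 182 CPM at day 6, wild type first. Chromosome 20 genes were lower in the knockout at day 0, with a median log2 ratio of -0.33 over 283 genes against -0.01 over all genes, and at day 6, with -0.14 over 255 genes against 0.25, which touches PCNA and E2F1 below.

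At day 0 the S phase genes were detected at every member, from 2.67 CPM (CCNE2) to 673 CPM (NASP) in wild type, and they made up 0.318% of the UMIs in wild type and 0.298% in the knockout. At day 6 their share was 0.153% in wild type and 0.236% in the knockout. Summed over the 40 members, the levels were 3178, 2979, 1531 and 2365 CPM in wild type at day 0, knockout at day 0, wild type at day 6 and knockout at day 6, the order used for all quartets of values. Wild type at day 6 was the lowest of the 4 libraries, and knockout at day 6 lay between it and the day 0 libraries. Barcodes with 1 to 50 UMIs, taken as free RNA, held the members at 3092, 3116, 1536 and 2278 CPM, close to the summed level in the cells. The plot of member levels gives all 40 genes in the 4 libraries.

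**Figure D1:**
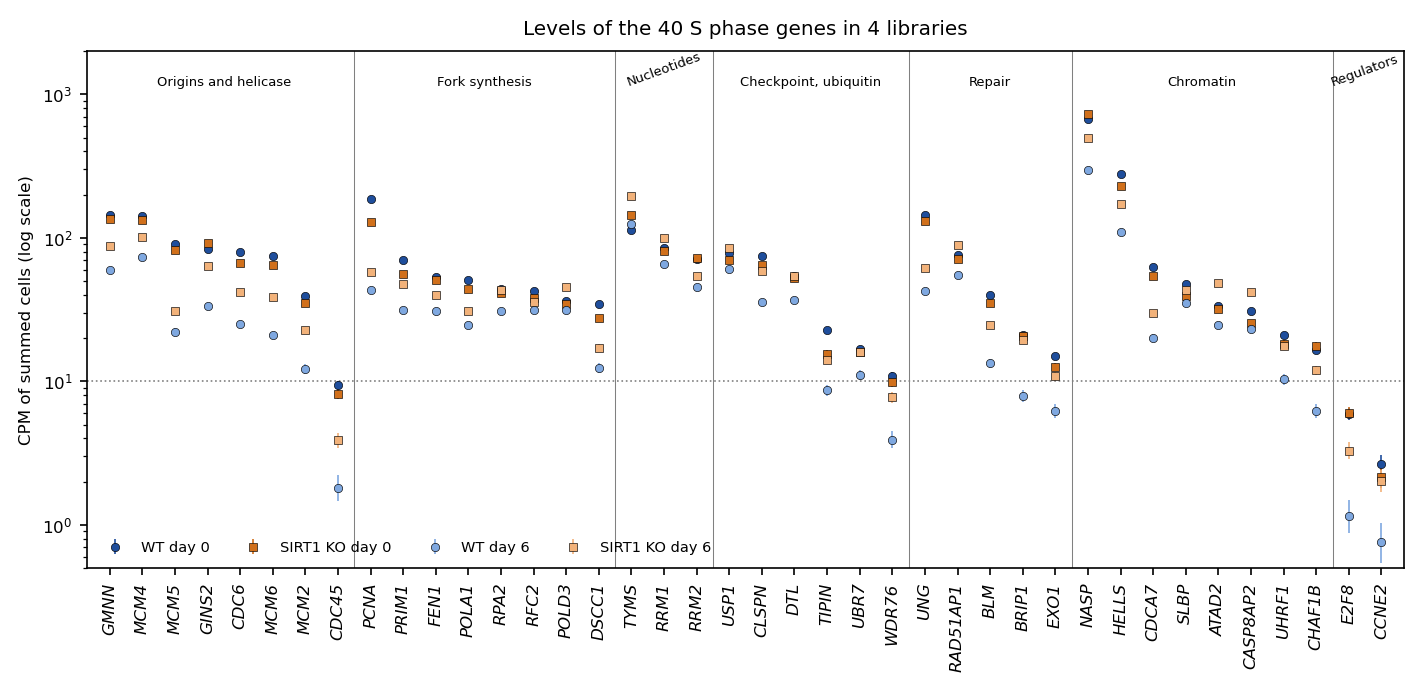
Level of each of the 40 S phase genes in the 4 libraries, in UMIs per 1000000 UMIs of the summed cells on a log axis, ordered by role, with 1 point per library. All members but TYMS are lowest in wild type at day 6, and CDC45, CCNE2 and E2F8 stand under 10 CPM in every library.

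Genes of origin licensing and helicase activation were high at day 0 and low at day 6. MCM2, MCM4, MCM5 and MCM6 encode subunits of the helicase. MCM2 was at 39.4, 35.2, 12.1 and 22.9 CPM, and MCM4 at 143, 133, 73.7 and 101 CPM. MCM5 was at 90.3, 82.5, 22.2 and 30.8 CPM. MCM6 was at 74.6, 64.2, 20.9 and 38.5 CPM. In all 4 subunits the 2 day 0 libraries lay above both day 6 libraries, and the knockout lay above wild type at day 6. The loader CDC6 followed the same order at 79.3, 67.1, 25.1 and 41.9 CPM. CDC45, which joins the helicase when it is activated, was rare at 9.38, 8.22, 1.81 and 3.87 CPM. GINS2, a subunit of the complex that binds with it, was at 84.2, 91.4, 33.7 and 64.1 CPM and was the gene of this group with the higher day 0 value in the knockout. GMNN encodes geminin, the licensing inhibitor, and was at 145, 135, 60.0 and 87.7 CPM.

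Genes of synthesis at the fork included both steep and nearly flat members. PCNA, the sliding clamp of the polymerases, was at 187 CPM in wild type at day 0, 128 in the knockout at day 0, 43.6 in wild type at day 6 and 58.2 in the knockout at day 6. It lies on chromosome 20. RFC2, a subunit of the clamp loader, varied little at 42.7, 38.3, 31.4 and 35.9 CPM, and DSCC1, of the loader used in sister chromatid cohesion, was at 34.4, 27.6, 12.3 and 17.1 CPM. POLA1 and PRIM1 belong to the polymerase alpha-primase that lays down primers. POLA1 was at 51.2, 43.9, 24.6 and 31.1 CPM and PRIM1 at 69.7, 55.9, 31.6 and 47.4 CPM. POLD3, a subunit of polymerase delta, was at 36.1, 34.8, 31.3 and 45.3 CPM and so was highest in the knockout at day 6. RPA2, which coats single-stranded DNA, was at 44.1, 41.3, 30.7 and 43.5 CPM. FEN1, the flap endonuclease of lagging-strand maturation, was at 53.7, 50.4, 30.7 and 39.96 CPM.

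The 3 genes of nucleotide supply kept much of their level at day 6. TYMS encodes thymidylate synthase and was at 114, 143, 125 and 195 CPM, with both knockout libraries above both wild-type libraries. RRM1 and RRM2 encode the subunits of ribonucleotide reductase. RRM1 was at 85.1, 80.7, 65.9 and 100 CPM, highest in the knockout at day 6. RRM2 was at 71.0, 71.8, 45.7 and 53.9 CPM.

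Among the genes of fork checkpoint and ubiquitin control, CLSPN, the claspin adaptor that passes the ATR signal to CHK1, was at 74.3, 64.9, 35.5 and 58.3 CPM. TIPIN, of the fork protection complex, was at 22.8, 15.5, 8.63 and 14.1 CPM, highest in wild type at day 0 and lowest in wild type at day 6. DTL, the substrate receptor of the ubiquitin ligase that degrades licensing factor CDT1, was at 54.5, 52.6, 37.1 and 53.8 CPM. USP1, which removes ubiquitin from PCNA and from FANCD2, was at 78.0, 69.6, 60.8 and 85.2 CPM. For DTL and USP1 the knockout at day 6 was thus as high as, or above, the day 0 knockout, and wild type at day 6 was lowest. UBR7 was at 16.7, 16.1, 11.0 and 15.9 CPM and WDR76 at 10.8, 9.86, 3.93 and 7.78 CPM.

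Among members that reached 10 CPM in either day 6 library, a repair gene had the highest ratio of knockout to wild type. BRIP1, a helicase of DNA crosslink repair, was at 20.9, 20.7, 7.91 and 19.5 CPM, so the knockout at day 6 was close to both day 0 libraries while wild type was far lower. BLM, the Bloom syndrome helicase, was at 40.2, 35.2, 13.4 and 24.7 CPM. EXO1, an exonuclease of mismatch repair and end resection, was at 14.9, 12.6, 6.18 and 10.8 CPM. RAD51AP1, which stimulates strand exchange, was at 76.0, 70.8, 54.7 and 89.6 CPM. UNG, the glycosylase that removes uracil from DNA, was at 143, 131, 42.4 and 61.4 CPM, with both day 6 libraries well under both day 0 libraries.

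The chromatin genes carried the largest part of the summed level. NASP, a chaperone of histone H3 and H4, was at 673, 725, 296 and 495 CPM, and HELLS, a remodelling ATPase needed for DNA methylation, at 278, 228, 110 and 171 CPM. CDCA7, which recruits HELLS, was at 62.4, 54.6, 20.1 and 30.1 CPM. UHRF1, which brings DNMT1 to newly copied DNA, was at 21.04, 18.3, 10.3 and 17.5 CPM. CHAF1B, a subunit of the chromatin assembly factor that deposits histones behind the fork, was at 16.5, 17.7, 6.18 and 12.0 CPM. ATAD2, a bromodomain ATPase, was at 33.2, 32.0, 24.6 and 48.3 CPM. CASP8AP2, required for histone gene expression, was at 31.1, 25.6, 23.2 and 41.7 CPM. ATAD2 and CASP8AP2 were therefore the members of this group with their highest value in the knockout at day 6. SLBP, which binds the stem-loop of histone mRNAs, was at 47.6, 39.0, 35.3 and 43.6 CPM. The 2 regulators of the cycle were rare. CCNE2, a cyclin E, was at 2.67, 2.14, 0.758 and 2.02 CPM, and E2F8, an atypical repressive E2F, at 5.95, 6.04, 1.15 and 3.29 CPM.

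In wild type the S phase genes were lower at day 6 than at day 0 almost throughout. A level of 10 CPM in either library made a gene measured, and it was counted as higher or lower where the ratio was at least 1.5-fold with an interval excluding 1. The 37 measured members split into 26 lower, 0 higher and 11 neither, against 37.2% lower and 11.7% higher among all 9324 measured genes. Of the 37, 36 had an interval below 1 at any size of difference, where 63.7% of all measured genes did. The median log2 ratio of the members was -1.14, against -0.35 over all genes, and their sum was 0.482 (0.478 to 0.486) of the day 0 level. Under TMM scaling, which centres the libraries on their shared genes, the members' median was -0.70 with all genes at 0.10, and 21 were lower. A summed level does not separate fewer cells with an RNA from less RNA per cell.

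Among measured members, the largest wild-type differences between days included those of the clamp and of helicase subunits. PCNA was 4.29-fold (4.10 to 4.49) lower at day 6, MCM5 4.07-fold (3.82 to 4.34) and MCM6 3.57-fold (3.34 to 3.81). UNG was 3.38-fold lower, MCM2 3.25-fold, CDC6 3.17-fold and CDCA7 3.10-fold. BLM at 3.01-fold, DSCC1 at 2.79-fold and WDR76 at 2.76-fold completed the 10 largest. Under 10 CPM in both libraries, CDC45 and E2F8 were each 5.19-fold lower and CCNE2 3.52-fold (2.49 to 5.10) lower. All 7 measured genes of origin licensing and helicase activation were lower, beside 5 of 8 of fork synthesis, 4 of 6 of checkpoint and ubiquitin control, 4 of 5 of repair, 5 of 8 of chromatin and 1 of 3 of nucleotide supply. That 1 was RRM2 at 1.56-fold. Among all measured genes 37.2% were lower. TYMS alone of the measured members had a ratio above 1, at 1.09-fold (1.06 to 1.13). POLD3 (1.15-fold lower) and USP1 (1.28-fold lower) were the next nearest to their day 0 level.

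Other genes of the pathway were listed apart from the 40. Of 35 measured further replication genes 20 were lower and 0 higher, with a median log2 ratio of -0.72. POLE2, of polymerase epsilon, was 3.83-fold lower (14.1 to 3.68 CPM) and MCM3, another helicase subunit, 2.52-fold lower (205 to 81.5 CPM). Of 7 further nucleotide genes 4 were lower, among them TK1, thymidine kinase, which was 2.82-fold lower (55.3 to 19.6 CPM). Of 9 further chromatin assembly genes 6 were lower, with the histone chaperone ASF1B 3.10-fold lower (22.1 to 7.14 CPM). The E2F and RB family held 7 lower of 11 measured, among them E2F1, an activator of S phase genes that lies on chromosome 20, which was 3.81-fold lower (28.1 to 7.39 CPM). The 9 G1/S cyclins and kinases divided into 2 higher, 4 lower and 3 neither, and their summed level was 1.51-fold higher (720 to 1090 CPM). CCNE1, the cyclin E that opens S phase with CDK2, was 4.96-fold lower (34.6 to 6.98 CPM), while the D cyclins CCND1 and CCND2 were 3.48-fold (89.6 to 311 CPM) and 2.29-fold (231 to 529 CPM) higher. The inhibitors of cyclin-dependent kinases went the other way, with 3 of 3 measured higher. CDKN1C was 7.33-fold higher (15.8 to 116 CPM) and CDKN1A, the gene of p21, 6.48-fold higher (45.1 to 292 CPM). For the 54 G2 and M phase genes, the counts were 15 lower and 0 higher, with a median of -0.22. Of all measured genes 37.2% were lower and 11.7% higher, with a median of -0.35.

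At day 6 the knockout held more RNA of the S phase genes than wild type. Among the 36 measured members were 18 higher, 0 lower and 18 neither, against 17.4% higher and 4.36% lower among all 8723 measured genes. The median log2 ratio was 0.59, while all genes stood at 0.25, so genes in general were also higher. RFC2 (0.19) and RRM2 (0.24) lay under the median of all genes. The summed level was 1.54-fold (1.53 to 1.56) higher. All 36 measured members had an interval above 1, where 66.1% of all measured genes did. With TMM scaling the members' median was 0.38 with all genes at 0.03, and 9 were higher. No member was lower by the 1.5-fold rule under any of the alternatives tried.

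The leading member was BRIP1 at 2.47-fold (2.20 to 2.76). ATAD2 followed at 1.96-fold (1.84 to 2.10), CHAF1B at 1.93-fold (1.69 to 2.21) and GINS2 at 1.90-fold (1.80 to 2.02). MCM2 was 1.88-fold higher, BLM 1.85-fold, MCM6 1.84-fold, CASP8AP2 1.80-fold, EXO1 1.75-fold and UHRF1 1.70-fold. The 8 other members past the limit lay between 1.52-fold (RRM1) and 1.67-fold (CDC6), with NASP, CLSPN, RAD51AP1, TIPIN, TYMS and HELLS between them or level with CDC6. CDCA7 (1.497-fold) and PRIM1 (1.5-fold) lay just under the limit, which was applied after adding a prior count of 0.5. Under 10 CPM in both libraries and therefore uncounted, E2F8 was 2.87-fold (2.14 to 3.89) higher, CCNE2 2.66-fold (1.85 to 3.91), CDC45 2.14-fold (1.68 to 2.75) and WDR76 1.98-fold (1.68 to 2.34).

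The groups differed in how many members passed the limit. Of the repair genes 4 of 5 were higher and of the chromatin genes 6 of 8, while of the fork synthesis genes it was 0 of 8. PRIM1 of the fork synthesis genes lay just under the limit, and 17.4% of all measured genes were higher. Origin licensing had 4 of 7, nucleotide supply 2 of 3 and checkpoint and ubiquitin control 2 of 5. The fork synthesis genes had ratios from 1.14-fold (RFC2, 1.07 to 1.22) to 1.5-fold (PRIM1, 1.41 to 1.59), with PCNA at 1.34-fold (1.27 to 1.41). Their median log2 ratio of 0.44 was still above that of all genes. Differences between the groups were not tested.

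**Figure D2:**
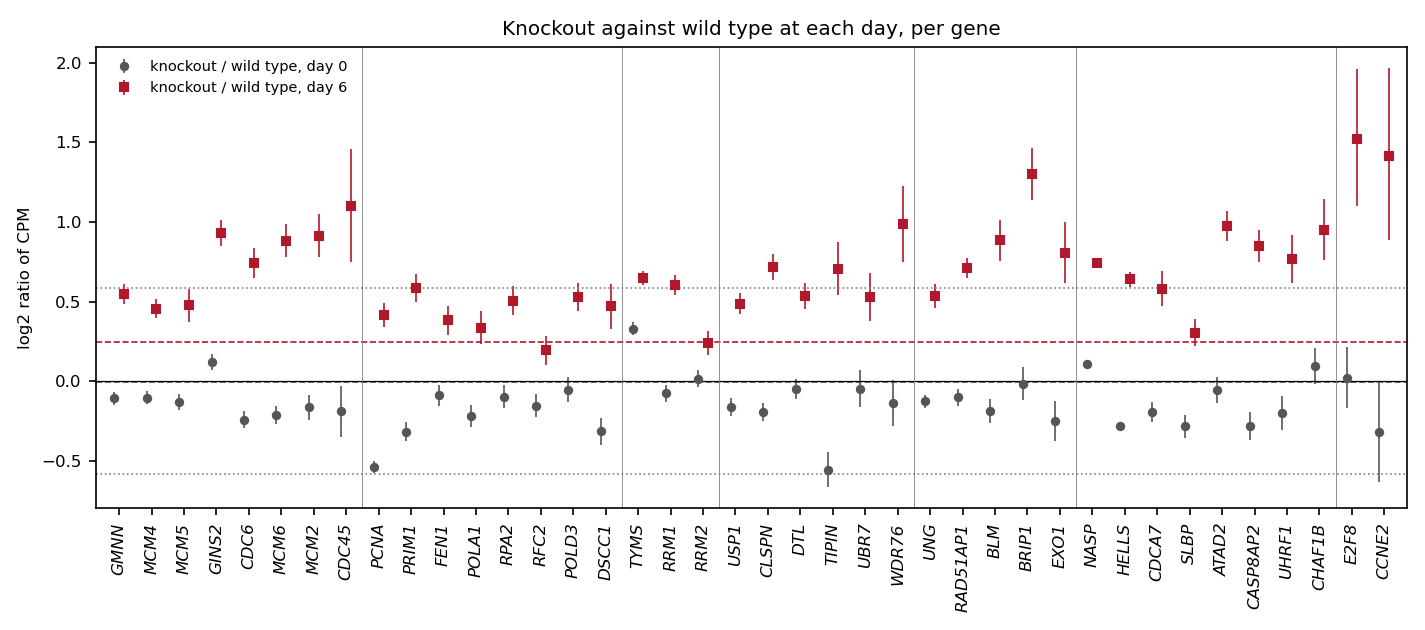
Ratio of knockout to wild type for each S phase gene at day 0 and at day 6, on a log2 axis, with exact 95% intervals for counting error and members ordered by role. The day 6 ratio lies above the day 0 ratio for all 40 members, the dashed medians of all measured genes stand at -0.01 and 0.25, and dotted lines mark 1.5-fold.

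Further genes of the pathway were read at day 6 as well. Of all 8723 measured genes, 17.4% were higher and 4.36% lower in this comparison, with a median log2 ratio of 0.25. Of 34 measured replication genes 13 were higher and 0 lower, led by POLA2, the second subunit of polymerase alpha, at 2.06-fold (6.14 to 12.7 CPM), and DBF4, the activator of the CDC7 kinase, at 1.84-fold (42.1 to 77.7 CPM). Of 7 nucleotide genes 3 were higher, among them DUT at 1.74-fold (52.0 to 90.7 CPM) and TK1 at 1.52-fold (19.6 to 29.8 CPM). E2F1 was 1.86-fold (1.64 to 2.10) higher (7.39 to 13.7 CPM) and 1 of 3 higher members of 11 measured in the E2F and RB family, with E2F5 and RBL1. Of the 7 measured G1/S cyclins and kinases 0 were higher and 0 lower, and CDK4 stood at 1.40-fold. CDKN1A was 4.24-fold (4.10 to 4.38) lower, from 292 to 68.9 CPM, and CDKN1C 1.58-fold lower, from 116 to 73.5 CPM. Of the 54 G2 and M phase genes, 19 were higher and 1 lower, with a median log2 ratio of 0.44. CENPE, a kinetochore motor, was 2.70-fold higher (26.5 to 71.7 CPM) and MKI67, the Ki-67 antigen, 2.08-fold (98.6 to 205 CPM).

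The day 6 contrast moved with the depth of the cells. Among cells of 4000 to 8000 UMIs the summed S phase level was 1231 CPM (wild type, 2314 cells) and 1346 CPM (knockout, 488 cells), a ratio of 1.09 (1.06 to 1.13). From 8000 to 12000 UMIs it was 1.08 (1.06 to 1.10). From 12000 to 16000 UMIs it was 1.69 (1.66 to 1.72), and from 16000 to 24000 UMIs 1.68 (1.64 to 1.71). From 8000 to 12000 UMIs there were 1862 wild-type and 1326 knockout cells, from 12000 to 16000 UMIs 800 and 1122, and above that 346 and 1047. In the knockout the level climbed from 1346 to 2707 CPM between the first and the third range, and in wild type it was highest from 8000 to 12000 UMIs at 1718 CPM. Restricting both libraries to 8000 to 16000 UMIs, a window chosen after these values were seen, gave a summed ratio of 1.38 and 12 members higher. The part that depth has in the result was not tested.

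**Figure D3:**
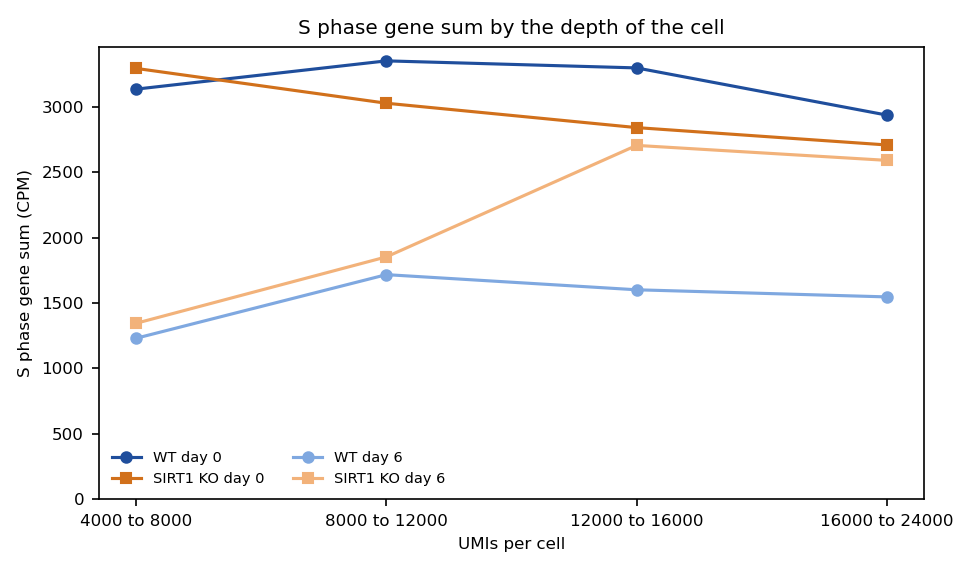
Summed level of the S phase genes (CPM) in cells grouped by UMIs per cell, for the 4 libraries, with 1 point per library and range. The day 6 libraries lie close together below 12000 UMIs and apart above it, where the knockout approaches its day 0 level.

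At day 0 the knockout differed little from wild type, and mostly towards lower levels. No member of the 37 measured was higher or lower (0 and 0), against 1.48% higher and 2.05% lower among all 9095 measured genes. By direction, 32 of 37 had a ratio below 1, where 51.3% of all measured genes did, and 26 of 37 had an interval below 1 against 35.8% of all. The median log2 ratio was -0.14, all genes standing at -0.01, and the summed ratio was 0.938 (0.932 to 0.943). The lowest ratios were those of TIPIN at 0.680 (0.630 to 0.734) and PCNA at 0.687 (0.669 to 0.705), then PRIM1 at 0.802 and DSCC1 at 0.804. PCNA is the member on chromosome 20, whose genes were low as a set in this library. Intervals above 1 were found for TYMS at 1.26 (1.22 to 1.29), GINS2 at 1.09 (1.05 to 1.12) and NASP at 1.08 (1.06 to 1.09). Without PCNA the summed ratio was 0.953.

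By depth the day 0 ratio was 1.05 (1.03 to 1.07) in cells of 4000 to 8000 UMIs and 0.903, 0.862 and 0.922 in the 3 ranges above. The first range held 502 wild-type and 3278 knockout cells. Further replication genes had 0 higher and 0 lower of 35 with a median of -0.05, and the G2 and M phase genes 0 and 0 of 54 with -0.04. Of all measured genes 1.48% were higher and 2.05% lower, with a median of -0.01. DBF4 had the lowest ratio of the replication genes at 0.748 (87.3 to 65.3 CPM). E2F1 stood at 0.788 (28.1 to 22.2 CPM) and CDKN1A at 1.44 (45.1 to 64.8 CPM), both short of the limit.

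In the knockout the day 6 library was lower than the day 0 library at fewer members than in wild type. It was lower at 9, higher at 2 and neither at 25 of the 36 measured, where 20.9% of all 9368 measured genes were lower and 13.9% higher. The count of lower members was thus near the share among all genes. Of the 36, 23 had an interval below 1, where 50.3% of all measured genes did. The median log2 ratio was -0.29, with all genes at -0.09, and the summed ratio 0.794 (0.789 to 0.799). MCM5 was 2.68-fold (2.55 to 2.82) lower, PCNA 2.21-fold (2.13 to 2.29) and UNG 2.13-fold (2.06 to 2.21). CDCA7, MCM6, DSCC1, CDC6, MCM2 and GMNN were 1.81-fold to 1.54-fold lower. CASP8AP2 was 1.63-fold (1.54 to 1.73) higher and ATAD2 1.51-fold (1.43 to 1.59) higher. Neither passed the limit in thinned cells (0 higher), and with TMM scaling, or in cells of 8000 UMIs or more, 5 members were lower. TYMS (1.37-fold), POLD3 (1.30-fold), RAD51AP1 (1.27-fold), RRM1 (1.24-fold) and USP1 (1.22-fold) also had ratios above 1 without passing the limit.

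By depth this comparison was also uneven, at 0.408 (0.396 to 0.421) in cells of 4000 to 8000 UMIs, 0.612 from 8000 to 12000, 0.952 from 12000 to 16000 and 0.957 from 16000 to 24000. The same ranges gave 0.392, 0.512, 0.485 and 0.526 in wild type. CDKN1A, which was 6.48-fold higher at day 6 in wild type, stood at 64.8 and 68.9 CPM in the knockout libraries (1.06-fold). Of the 9 G1/S cyclins and kinases 2 were higher and 3 lower, CCNE1 being 3.32-fold lower (32.1 to 9.67 CPM), and E2F1 was 1.62-fold lower (22.2 to 13.7 CPM). Of the 54 G2 and M phase genes 6 were higher and 0 lower. Among all measured genes 13.9% were higher and 20.9% lower. The median of the G2 and M phase genes was 0.24, with all genes at -0.09. That list and the S phase genes thus had medians of opposite sign in the knockout.

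The knockout-to-wild-type ratio was larger at day 6 than at day 0 for each of the 40 members. The difference in log2 ratio, day 6 minus day 0, ran from 0.22 (RRM2) to 1.72 (CCNE2) with a median of 0.81, and for the summed level it was 0.72. Beside CCNE2, it was largest in E2F8 (1.49), BRIP1 (1.32), CDC45 (1.28) and TIPIN (1.26). It was smallest, after RRM2, in TYMS (0.32), RFC2 (0.35) and FEN1 (0.47). In 28 members the day 0 interval lay below 1 and the day 6 interval above it. Over all measured genes the median log2 ratio was -0.01 at day 0 and 0.25 at day 6. Genes in general thus also had a larger ratio at day 6, and how many had such a pair of intervals was not counted. With 1 library per group the difference could not be tested, and depth per cell changes sides between the days as well.

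Counts per cell were compared after thinning each cell to 4000 UMIs. The 40 members together gave a mean of 12.9 UMIs per cell in wild type at day 0, 12.4 in the knockout at day 0, 5.89 in wild type at day 6 and 8.89 in the knockout at day 6, with medians of 13, 12, 5 and 8. The day 0 distributions nearly coincided, and the day 6 distributions were shifted down and wider for their mean. The variance was 1.60, 1.76, 2.62 and 3.65 times the mean. Of the cells, 2, 2, 122 and 65 held no member UMI. The share of cells at or above 13 UMIs, the wild-type median at day 0, was 50.4% (49.0 to 51.7), 45.2% (44.1 to 46.4), 6.63% (5.98 to 7.33) and 22.8% (21.6 to 24.1). At or above 19 UMIs it was 11.2%, 10.1%, 0.968% (0.724 to 1.27) and 6.77% (6.04 to 7.55). Without thinning, as UMIs of members per 10000, the medians were 31.7, 30.0, 13.1 and 20.5. The 13-UMI line is a point on a continuous range, and 18.3%, 16.0%, 3.85% and 8.67% of the cells held 12 or 13 UMIs.

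**Figure D4:**
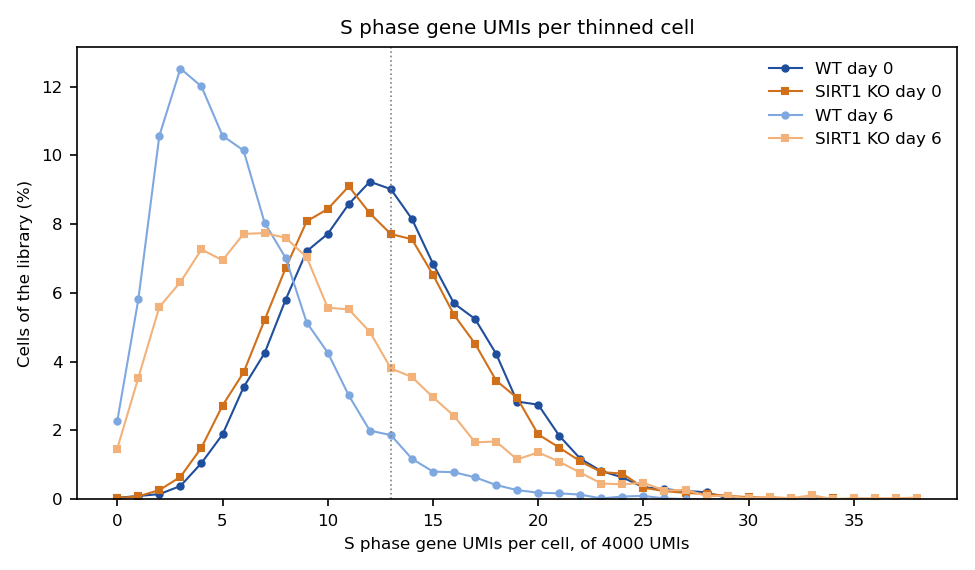
Distribution of S phase UMIs per cell after thinning to 4000 UMIs, as percent of cells in each library. The 2 day 0 curves overlap with medians of 13 and 12, wild type at day 6 peaks at low counts with a median of 5, and knockout at day 6 has a median of 8 and a longer right side.

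For single members the thinned share of cells with a UMI followed the level. PCNA was seen in 51.3%, 40.3%, 14.6% and 16.8% of thinned cells, and in 87.3%, 66.4%, 28.5% and 43.6% of cells at their own depth. If free RNA made up 10% of the UMIs, it alone would put a PCNA UMI in 7.14%, 5.26%, 1.65% and 2.64% of thinned cells. NASP was seen in 91.1%, 92.4%, 62.6% and 75.5% of thinned cells and CCNE2 in 1.19%, 0.962%, 0.391% and 0.724%. No cell class that should lack S phase genes was at hand to measure background in.

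Cells were next ranked by the summed S phase UMIs and cut into deciles within each library, to see how the G2 and M phase genes stood beside them. At day 0 the summed level of the 54 G2 and M phase genes went down as the S phase sum went up, from 8124 CPM in the lowest decile to 6140 CPM in the highest in wild type and from 8323 to 5580 CPM in the knockout. At day 6 it went up and then down. In wild type it was 3179 CPM in the lowest decile, 7311 CPM in the eighth and 5846 CPM in the highest. In the knockout it was 3543 CPM in the lowest, 8805 CPM in the fifth and 5679 CPM in the highest. At day 6 the cells lowest in S phase genes were thus also low in G2 and M phase genes, in both genotypes, which was not so at day 0. In the highest decile the S phase sum was 5373, 5352, 3575 and 5211 CPM, so the knockout at day 6 came near the day 0 libraries there and wild type did not. In the lowest decile it was 1420, 1295, 241 and 338 CPM. Median UMIs per cell in the lowest and highest decile were 6679 and 9180 in wild type and 9155 and 14910 in the knockout at day 6, and at day 0 they were 14007 and 11865 in wild type and 9595 and 7638 in the knockout.

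**Figure D5:**
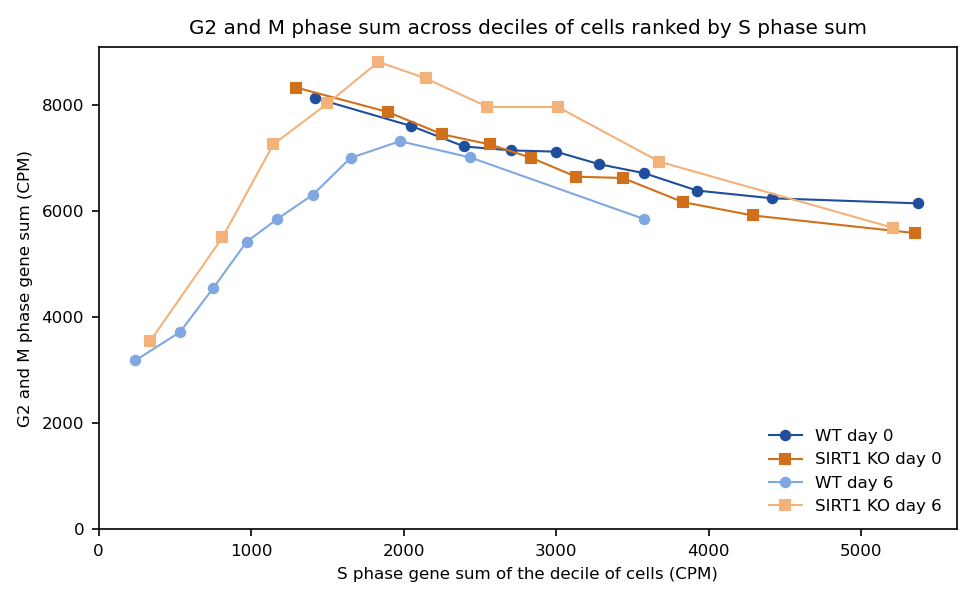
Summed level of the 54 G2 and M phase genes (CPM) against that of the 40 S phase genes (CPM) for deciles of the cells of each library ranked by the S phase sum, in cells thinned to 4000 UMIs. The day 0 lines slope down throughout, and the day 6 lines climb from 3179 and 3543 CPM to 7311 and 8805 CPM before they go down.

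Members differed in how strongly they followed the others across cells. Each member was read in the quartile of cells with the highest and the lowest sum of the 39 others. CCNE2 had the highest ratio, with a median of 6.81 over the 4 libraries (3.12, 2.07, 12 and 10.5), resting on 25, 29, 12 and 21 UMIs in the high quartile and 8, 14, 1 and 2 in the low one. E2F8 followed at 4.41 (1.56, 1.82, 14 and 7), also from few counts. Among better counted members ATAD2 was at 3.73 (1.51, 2.17, 5.30 and 7.40), CDC6 at 3.58 (1.84, 2.34, 4.83 and 9.27) and DTL at 3.57 (1.68, 1.95, 5.58 and 5.20). These 3 varied with the rest of the set at both days, with larger ratios at day 6. Between quartiles ranked by the sum of all 40 members, the ratios of that same sum were 2.56, 2.70, 6.12 and 6.26. Ranking by the sum itself puts them above 1, and counting noise widens them where the mean is lower. The standard deviation of the sum was 4.54, 4.66, 3.93 and 5.70 UMIs per thinned cell, smallest in wild type at day 6. PCNA stood at 1.58, 1.65, 3.88 and 7.30. The lowest medians were those of TYMS at 1.46 (1.18, 1.09, 1.73 and 2.19), SLBP at 1.57 (1.35, 1.21, 1.79 and 2.60) and TIPIN at 1.60 (1.48, 1.72, 1.42 and 2.27). DSCC1 had 1.62 (1.20, 1.21, 2.78 and 2.02) and RPA2 1.64 (1.30, 1.29, 1.98 and 2.93). All 40 ratios were above 1 in each of the 4 libraries, the lowest being 1.09 for TYMS in the knockout at day 0.

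Ranked by the G2 and M phase sum in place of the S phase sum, the members separated. MCM6 had lower levels in the quartile highest in G2 and M phase genes in every library, at ratios of 0.525, 0.413, 0.639 and 0.389. MCM5 behaved alike at 0.603, 0.553, 0.678 and 0.953, and CCNE2 at 0.304, 0.348 and 0.5 in the first 3 libraries and 1.2 in the knockout at day 6. UNG was at 0.632, 0.551, 1.05 and 0.778, and WDR76 at 0.343, 0.419, 1.07 and 0.600. At the other end, RAD51AP1 stood at 1.02, 0.981, 5.29 and 3.35, RRM2 at 0.881, 0.808, 3.28 and 4.48 and GMNN at 1.09, 0.969, 3.08 and 2.94. BLM was at 0.974, 0.932, 5.35 and 2.86 and BRIP1 at 0.875, 0.867, 4.00 and 2.93. The summed level of the members had ratios of 0.840, 0.780, 1.81 and 1.66 in the same ranking. By the median over the 4 libraries, CCNE2, MCM6, WDR76, MCM5 and the repair gene UNG lay towards the low end. RAD51AP1, RRM2, GMNN, BLM and BRIP1 lay towards the high end, through their day 6 ratios. At day 0 the ratios of RRM2 and BRIP1 were close to those of the summed level. USP1 and POLA1 were above 1 in every library, with lowest ratios of 1.14 and 1.06. The 4 libraries are descriptions side by side, and cells of 1 library share its depth and handling.

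Of 4655 further genes at 20 CPM or more in all 4 libraries, 9 are named. They ranked among the highest by the lowest of their 4 quartile ratios, with cells split by the S phase sum. HIST1H1A, a linker histone, and SLF1, which recruits the SMC5/6 complex to stalled forks, came first, each with a lowest ratio of 1.44. NCL, the nucleolin gene, had a lowest ratio of 1.37, and KNTC1, a kinetochore protein, and ZNF93, a zinc finger gene, of 1.36. RBBP8, the end-resection factor CtIP, had 1.34, the helicase RECQL 1.33, and BMS1 and RANBP2 1.32. The median gene had ratios of 1.02, 1.02, 1.07 and 1.09 in the 4 libraries, and the 95th percentile was 1.22, 1.23, 1.54 and 1.74. In both day 6 libraries NCL (1.51 and 1.56), ZNF93 (1.36 and 1.68) and RANBP2 (1.38 and 1.48) lay under that percentile. At day 6 the ratios of KNTC1 were 3.51 and 3.48, those of HIST1H1A 2.76 and 3.22 and those of RBBP8 2.11 and 3.02, wild type first.

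At day 6 the member sum also differed between cells with and without a UMI of 6 marker genes. Cells with a UMI of TOP2A, a topoisomerase of dividing cells, held a mean of 6.56 member UMIs of 4000 in wild type and 9.62 in the knockout, against 4.95 and 7.52 without one. Cells with a FOXA2 UMI, a floor plate factor, held fewer, at 5.31 against 6.09 in wild type and 7.51 against 9.40 in the knockout. The same direction was seen for ANXA1, with 4.52 against 6.00 in wild type (420 cells with a UMI) and 6.04 against 8.91 in the knockout (23 cells). For CDKN1A it was 6.14 against 5.63 in wild type and 10.0 against 8.67 in the knockout, although the gene's summed level was far higher in wild type. For POU5F1 the means were 6.24 against 5.68 and 9.63 against 8.53, and for FABP7, a progenitor gene, 6.66 against 5.82 and 9.54 against 8.61. Markers were read in cells thinned to 4000 UMIs, and depth before thinning still differed between the sides of a split. TOP2A cells had a median of 9748 UMIs in wild type against 7536 without, and 14928 against 10723 in the knockout. The median was also higher with a UMI of CDKN1A, POU5F1 or ANXA1. It was lower with one of FABP7 or of FOXA2, the latter at 7586 against 8923 in wild type and 12144.5 against 13454 in the knockout. In each split with and without a marker UMI, the knockout means lay above those of wild type.

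Markers of the cell types the day 6 cultures could hold were read beside these sums. Of the 7 neural progenitor markers 3 of 4 measured were higher in the knockout, against 17.4% of all measured genes, and their sum was 331 and 1022 CPM, wild type first, mostly PTN (178 and 755 CPM) and FABP7 (20.4 and 121 CPM). SOX1 (0.272 and 1.65 CPM) and PAX6 (0.292 and 0.429 CPM), which define that type, were near 0. Of the 7 floor plate markers only FOXA2 passed 10 CPM, at 91.4 and 101 CPM. The 6 mesenchymal markers summed to 433 and 140 CPM, most of it COL1A1 (369 and 94.6 CPM), with LUM at 0 in wild type. COL1A2 was also lower in the knockout (58.4 and 35.9 CPM). The other markers of this list, COL3A1, LUM, DCN and TWIST1, were higher in the knockout, all under 10 CPM. The 7 neuron markers summed to 78.8 and 82.8 CPM, with NEUROD1 under 0.1 CPM. The 7 markers of endoderm or mesoderm summed to 1.13 and 0.949 CPM, and the 5 of neural crest to 42.5 and 38.7 CPM. The 9 pluripotency markers summed to 1302 and 1496 CPM. The part of cell type in the day 6 contrast of the S phase genes was not tested.

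Histone genes of the replication-dependent clusters, whose RNA is made in S phase and mostly lacks a poly(A) tail, were read only as far as a poly(A) kit captures them. Their 13 members summed to 3119, 3100, 1972 and 2947 CPM. At day 6 the knockout was at 3 higher, 2 lower and 8 neither of 13 measured, against 17.4% higher and 4.36% lower among all measured genes, with a median log2 ratio of 0.42 and a summed ratio of 1.49. In wild type, 5 were higher and 3 lower at day 6 than at day 0 of 13 measured, against 11.7% higher and 37.2% lower among all measured genes, although the sum was lower. The median log2 ratio was 0.21 and so opposite in sign to the ratio of the sums.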

How the data were processed

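RNA was read by 10x 3′ sequencing in 4 libraries, 1 per genotype and day. The authors deposited raw UMI counts per gene and barcode, made with Cell Ranger 6.1.2 on GRCh38 per the submitters' processing notes, while the matrix header names Cell Ranger 4. Every barcode was deposited, so cells were called here, at 4000 UMIs, 1000 genes and at most 20% mitochondrial UMIs. No doublet caller was run. Counts were summed per library and divided by the library's UMIs in cells (CPM). Genes at 10 CPM in either library were compared, at a limit of 1.5-fold after adding a prior count of 0.5 to each sum, with exact 95% intervals for counting error. TMM factors came from edgeR 4.0.16 (R 4.3.3), and the rest from Python 3.11.15, numpy 2.4.6, scipy 1.17.1, pandas 2.3.3 and matplotlib 3.10.9. Thinning drew 4000 UMIs per cell with a fixed seed. Free RNA was the profile of barcodes with 1 to 50 UMIs. Chromosomes came from GENCODE release 29 for 34616 of the features, joined by Ensembl ID.

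The genes named were the 10 members with the largest change past the limit in a comparison, those with the highest and lowest levels and quartile ratios, PCNA, up to 4 genes per further list, and 9 of the first 10 genes outside the lists at 20 CPM or more in all libraries. Members left over were given in full because the list is short. The members and lists were chosen with earlier results of these data known. Some genes that meet the rules are not reported here. The script that makes the fold calls was tested on simulated data, which checks the code and not the conditions. The alternatives tried are given with the limits.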

Additional observations from a re-analysis of the deposited data

Results flagged for a closer look

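The contrast of knockout with wild type differed between the days. The log2 ratio of the summed S phase genes was larger at day 6 than at day 0 by 0.72, that of PCNA by 0.96 and that of TIPIN by 1.26. PCNA and TIPIN had the lowest ratios at day 0 (0.687 and 0.680) and ratios of 1.34 and 1.63 at day 6. Over all measured genes the median log2 ratio was -0.01 at day 0 and 0.25 at day 6. The difference between the days was not tested, since each group is 1 library.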

How the results depend on the processing

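No paired analysis was possible because each group is 1 library and no result comes from a test. Of the recomputed values, 156 stayed within the limits set for a change, 77 moved and 0 reversed. Some of the 156 could not move. The chromosome 20 limit left wild-type cells as they were, and a count of 0 at 1.5-fold stays 0 at 2-fold. The alternatives with cells of 8000 to 16000 UMIs and without NASP were chosen after seeing the data. In the order knockout against wild type at day 0, the same at day 6, day 6 against day 0 in wild type and in the knockout, the summed ratio was 0.980, 1.33, 0.639 and 0.867 with TMM, 0.897, 1.47, 0.519 and 0.848 in cells of 8000 UMIs or more, 0.896, 1.38, 0.504 and 0.777 in cells of 8000 to 16000 UMIs, 0.961, 1.51, 0.458 and 0.720 after thinning, and 0.900, 1.51, 0.493 and 0.829 without NASP. It was 0.951 (day 0), 0.475 (wild type) and 0.772 (knockout) without the 5% of cells with most UMIs, 0.953, 0.497 and 0.809 without PCNA, 0.930 (day 0) and 0.801 (knockout) with 10% free RNA subtracted, and 0.924 (day 0) and 1.53 (day 6) with knockout cells holding 3% or more of chromosome 20 UMIs. With ribosomal protein and mitochondrial genes left out of the total it was 1.45 (day 6), 0.516 (wild type) and 0.799 (knockout). The difference between the days was 0.44 with TMM, 0.65 thinned, 0.70 without the deepest cells and without PCNA, 0.74 with free RNA subtracted, 0.75 without NASP, 0.63 with the reduced total and 0.62 in cells of 8000 to 16000 UMIs.

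The median log2 ratio at day 0 was -0.078 with TMM, -0.20 from 8000 UMIs and -0.23 from 8000 to 16000 UMIs. At day 6 it was 0.38 with TMM, 0.51 with the reduced total and 0.45 from 8000 to 16000 UMIs. At a fold limit of 5 to 4, 1 member was higher and 2 lower at day 0, 33 higher at day 6, and 5 higher and 18 lower at day 6 in the knockout. At 2-fold, 1 member was higher at day 6, and 0 higher and 3 lower between the days in the knockout. In cells of 8000 UMIs or more, and of 8000 to 16000, 2 members were lower at day 0. With TMM 9 were higher at day 6, and 5 lower between the days in the knockout, as in cells of 8000 UMIs or more (5). Members higher at day 6 in the knockout numbered 0 after thinning, and 1 in cells of 2500 UMIs or more, without the deepest cells and with the chromosome 20 limit. Shares of cells at or above the wild-type day 0 median of each alternative, in knockout at day 0, wild type at day 6 and knockout at day 6, were 43.5%, 4.62% and 19.9% without thinning and 49.1%, 7.80% and 26.4% without PCNA. They were 41.9% and 8.98% (the first and the second of these libraries) from 8000 to 16000 UMIs, 9.62% and 25.4% (day 6) without NASP, 41.0% and 24.7% (knockout) thinned to 8000 UMIs, and 46.4% (knockout, day 0) without the deepest cells. With 1 library per group, genotype and day cannot be told apart from the library, and depth per cell differs with them. The causes of these shifts were not tested.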
